A study of Mus musculus with 24 samples.

Results

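This section describes 34 genes that mark astrocytes, the glial cells that surround synapses and blood vessels, in bulk RNA from the mouse anterior cingulate cortex. The genes were chosen by name as astrocyte-enriched transcripts, and the only measured condition was a mean of at least 1 FPKM over 24 libraries. FPKM (fragments scaled by gene length and library depth, as deposited by the authors) is a level per length, so genes can be compared with each other. All 34 genes were in the table of 15232 genes and all 34 met that condition, as did 12572 genes in all. The study deposited 1 library per mouse, made from polyadenylated RNA of the whole tissue piece, and its labels give 3 arms of 8 mice with 4 females and 4 males each. The first arm holds untrained mice labelled wild type (WT). The second holds untrained mice labelled Thbs1/2 KO, that is, knocked out for the genes of thrombospondin 1 and thrombospondin 2. The third holds Thbs1/2 KO mice that underwent Skinner box training, for which animals were food deprived, so training and food deprivation cannot be told apart. Trained WT mice were not analysed here. In such tissue, fewer astrocytes and less RNA per astrocyte cannot be told apart.

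Astrocytes clear glutamate from the synapse with the transporters GLT-1 and GLAST, and glutamine synthetase turns that glutamate into glutamine for return to neurons. They share ions and metabolites through gap junctions built of connexin 43 and connexin 30. They also make metallothioneins, small cysteine-rich proteins that bind zinc and copper, and thrombospondins, secreted matrix proteins known for promoting the formation of excitatory synapses.

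The genotype labels were checked first with the targeted genes, which went against them. Thbs1 was at most 0.716 FPKM in the 8 libraries labelled WT and at least 2.77 FPKM in the 8 untrained libraries labelled KO. The same held for Thbs2, with at most 2.31 FPKM against at least 2.82 FPKM (exact permutation test, 2-sided, p = 0.0001554 for each gene, the smallest that 8 against 8 allow). The libraries are therefore called labelled WT or labelled KO throughout, and every direction by genotype rests on these labels. Reads recovered from the steps of the FPKM values numbered 12898226 to 19991770 per library for WT, 12343773 to 27233266 for untrained KO and 16796512 to 20414047 for trained KO. The 34 genes had 192 to 83835 reads per gene and library. All 8 trained mice carry animal numbers over 1000, against 2 untrained mice labelled KO and 1 labelled WT, all 3 of them male, so number and training overlap and cannot be told apart among females. 1 library, untrained KO male 3, stood apart: its 8 striatal neuron markers summed to 750.0 FPKM against 86.6 to 379 FPKM in the other 23 libraries, and its 6 cortical neuron markers to 41.8 FPKM against 134 to 170 FPKM. Of the 34 astrocyte genes, 9 were higher and 6 lower in that library than in the other 7 of its arm, and 19 were within their range. Among the 34 genes, calls that it decides are given with and without it. Calls of single genes outside the 34, where it is among the libraries compared, are given only with it.

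All 34 genes were well detected, at very different levels. Glul, the gene of glutamine synthetase, had the highest mean over the 24 libraries, 674 FPKM, followed by Cst3 (657 FPKM), Apoe (522 FPKM) and Clu (448 FPKM), which encode secreted proteins. The glutamate transporter genes Slc1a2 (295 FPKM) and Slc1a3 (171 FPKM) and the metallothionein genes Mt3 (292 FPKM), Mt1 (166 FPKM) and Mt2 (108 FPKM) stood in the upper part of the order. The gap junction genes Gja1 (63.8 FPKM) and Gjb6 (29.4 FPKM) stood in the middle. Gfap, the classical intermediate filament marker, averaged 24.5 FPKM, and Sox9, a transcription factor of the glial lineage, was lowest at 4.33 FPKM. Single animals differed over many of the genes at once. Averaged over the 34 genes, the deviation from each gene's 24-library mean in log2(FPKM + 1) ran from -0.16 in WT female 4 to 0.21 in untrained KO female 4, and 5 of 34 genes were above their mean in the former against 30 of 34 in the latter. The next highest libraries were untrained KO male 2 (0.16), trained KO male 4 (0.14) and untrained KO male 3 (0.13).

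**Figure D1:**
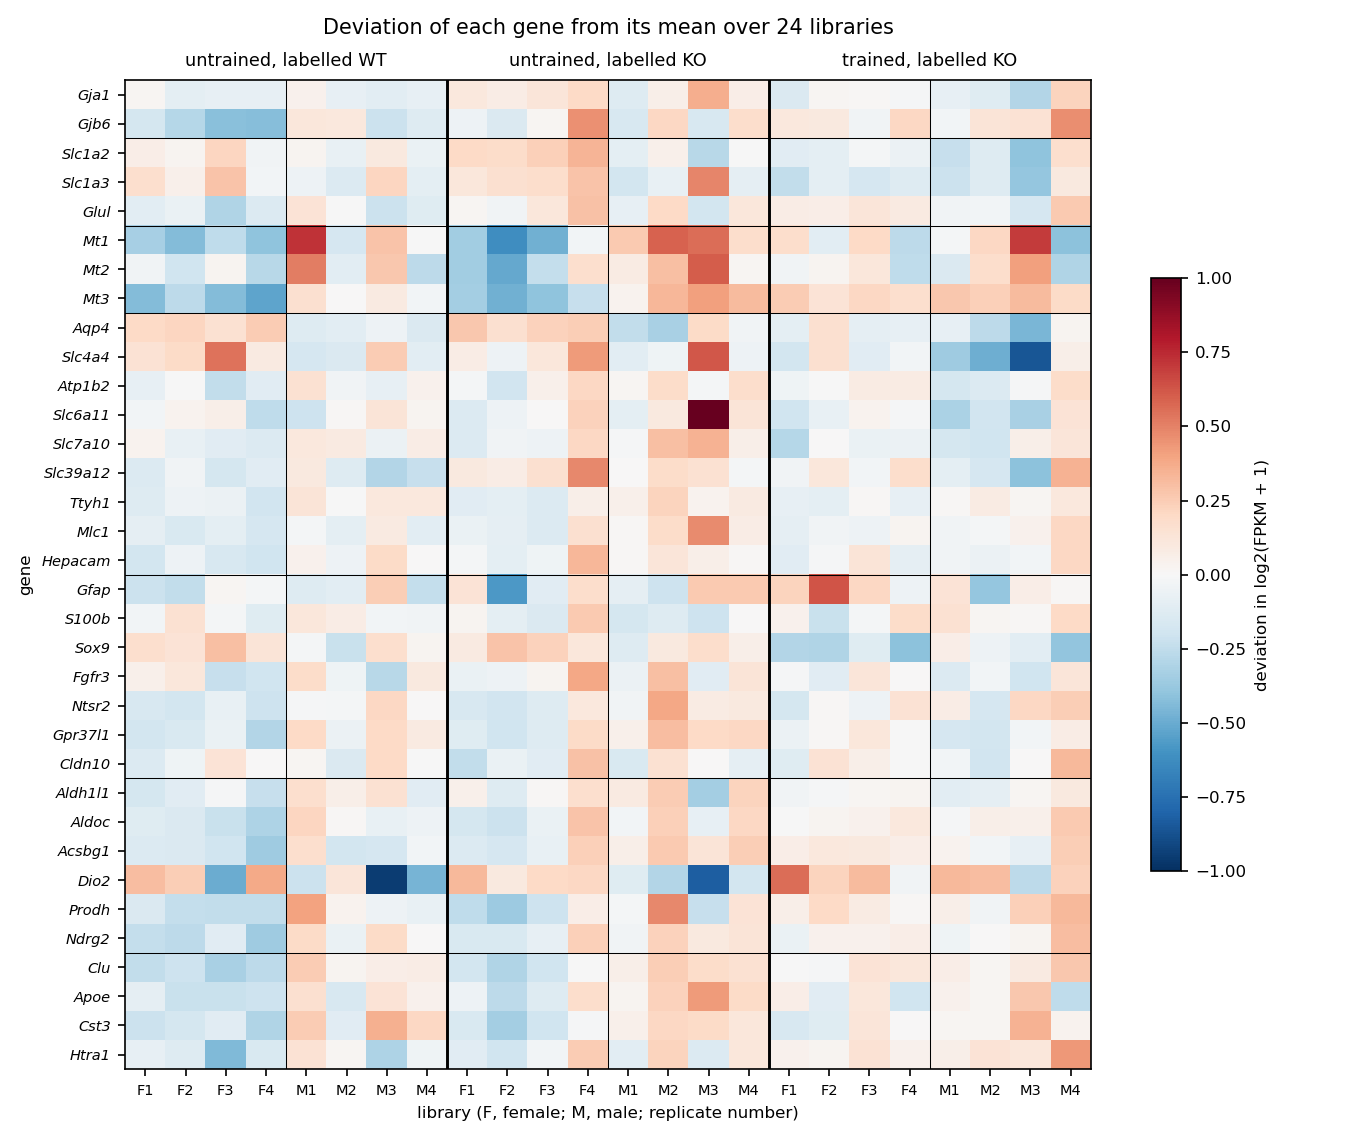
Heatmap of the 34 astrocyte genes (vertical axis, by role) in the 24 libraries (horizontal axis, F for females and M for males, by arm), with colour for the deviation of log2(FPKM + 1) from the gene's mean over all libraries. Untrained KO female 4 is above the mean for 30 of 34 genes and WT female 4 for 5 of 34, and the untrained females are low for Mt3.

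Untrained mice labelled KO were compared with untrained mice labelled WT, the comparison of genotypes without training. None of the 34 genes passed, although most were on the higher side in the libraries labelled KO. The test was limma on log2(FPKM + 1) with sex as a covariate and p-values adjusted by the Benjamini-Hochberg method over all 12572 genes, with a threshold of 0.05. It called 0 of 34 astrocyte genes, where 1.42% of all tested genes were called (0.605% upward and 0.819% downward), and 8 of 34 had an unadjusted p under 0.05, against 12.7% of all tested genes. The log2 difference was positive for 31 of 34 genes (49.3% of all tested genes), with a median of 0.09 (-0.0014 for all tested genes). The 3 genes below 0 were S100b (-0.07), Cldn10 (-0.03) and Cst3 (-0.0044). The genes share their libraries, so counts of signs, here and in the other comparisons, are not counts of separate outcomes. Averaged over the 34 genes, deviations from the 24-library means ran from -0.16 (female 4) to 0.11 (male 1) in the WT-labelled arm. In the untrained KO-labelled arm they ran from -0.14 (female 2) to 0.21 (female 4). No astrocyte gene separated the arms without overlap, which 0.501% of all tested genes did. Without untrained KO male 3, 27 of 34 differences were positive and 1 gene, Slc39a12, was called, against 2.7% of all tested genes. Among the 13 mice with animal numbers under 1000, 32 of 34 were positive, with a median of 0.12, and 2 genes were called (Gja1 and Slc39a12), against 1.01% of all tested genes. Markers of other cells were compared between the same arms. All 9 oligodendrocyte markers and all 9 microglial markers had negative differences, with medians of -0.14 and -0.03. The microglial receptor gene Trem2 was the only one of these 18 called (-0.44, limma adjusted p = 0.0035). The summed level of the 9 oligodendrocyte markers was 1019 to 1638 FPKM in the libraries labelled WT and 717 to 1333 FPKM in those labelled KO. The value of 717 FPKM was that of untrained KO male 3, and the other 7 of its arm were at 1163 to 1333 FPKM. The summed level of the 9 microglial markers was 209 to 246 FPKM and 195 to 246 FPKM in the same order. Their part in the astrocyte values was not tested. The positions of these 18 marker genes relative to Thbs1 and Thbs2 were not examined.

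Training was compared among the mice labelled KO. Sox9 was the only astrocyte gene called, and it fell. That is 1 of 34 genes, against 5.67% of all tested genes called (3.5% higher and 2.17% lower). Unadjusted p-values under 0.05 were found for 9 of 34 genes (23.8% of all tested genes). Signs were mixed, with 14 of 34 differences positive (52.2% of all tested genes) and a median of -0.01 (0.0065 for all tested genes). By role, positive differences were found for 0 of 9 other transporters, channels and junction proteins (median -0.15), 0 of 3 glutamate uptake genes (median -0.19), 1 of 2 gap junction genes, 2 of 3 metallothionein genes, 4 of 7 genes of structure and identity, 4 of 6 metabolic genes and 3 of 4 secreted protein genes. A difference between roles was not tested. Under quantile normalization 9 of 34 were positive, with a median of -0.07. No gene separated the 2 arms without overlap (0.962% of all tested genes). With an animal number over 1000 as a covariate, no astrocyte gene and none of all tested genes was called. That fit, and one of the 6 males labelled KO with numbers over 1000, which called 0 of 34 genes, set the trained arm against only 2 untrained mice with such numbers, so an absence of calls says little.

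**Figure D2:**
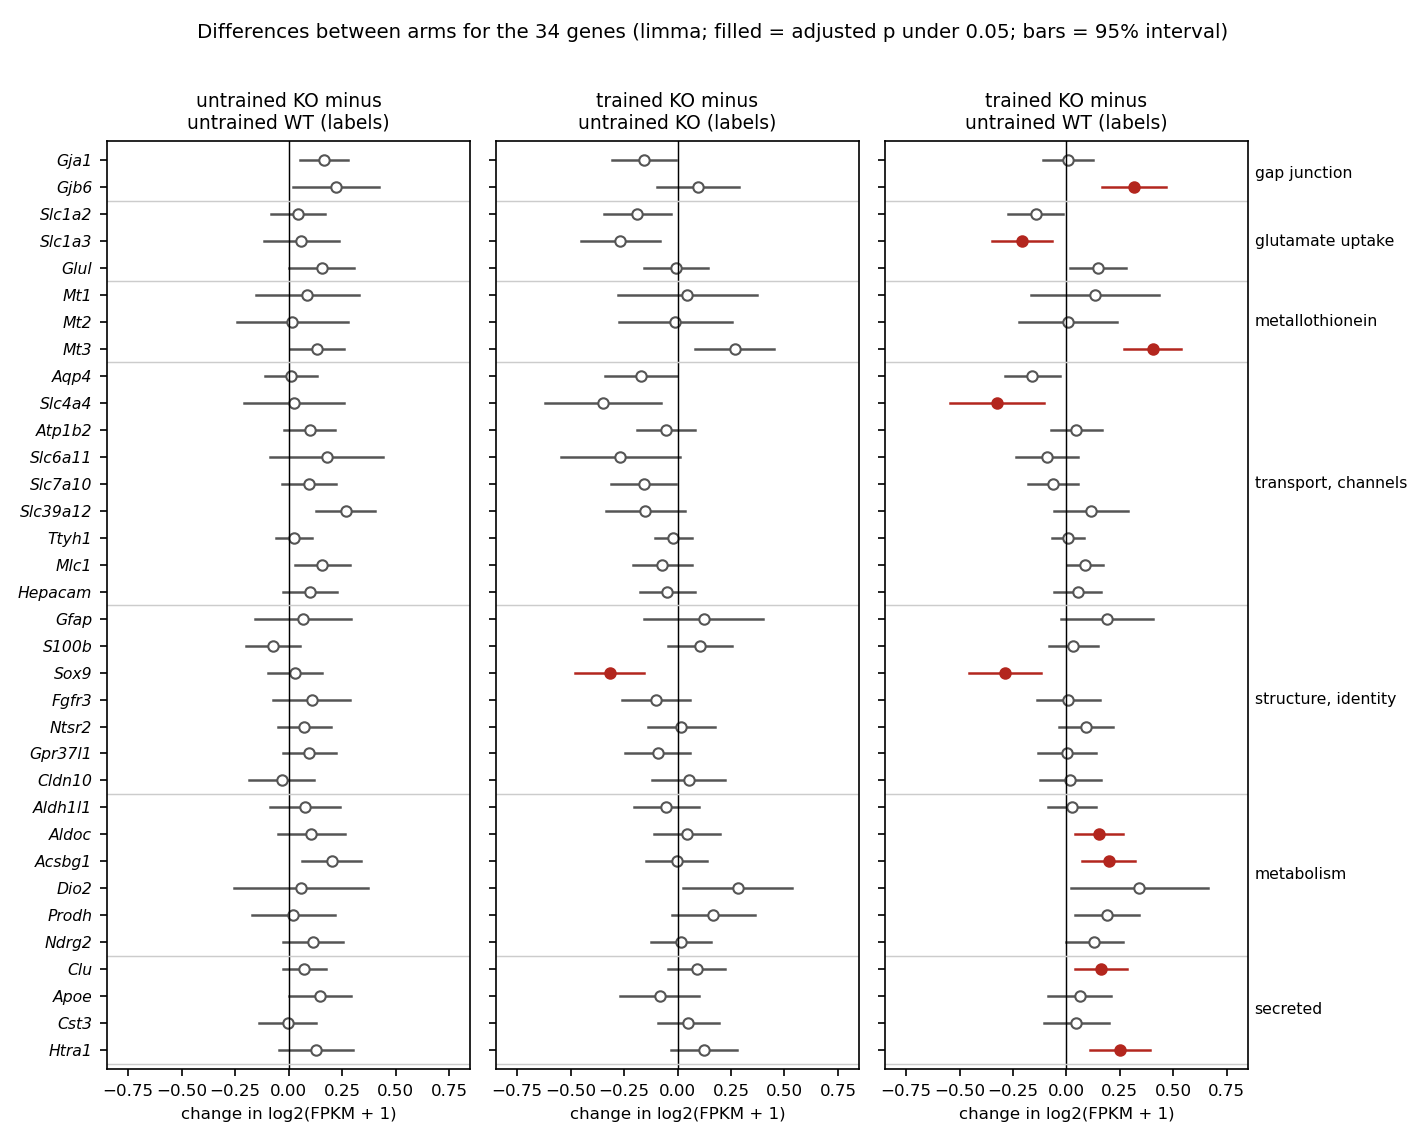
Differences in log2(FPKM + 1) (horizontal axes) between the 3 pairs of arms for the 34 genes (vertical axis, by role), with 95% intervals from limma. Filled red points passed an adjusted p of 0.05: none for genotype label, Sox9 for training, and 9 genes between trained KO and untrained WT.

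Trained mice labelled KO were also compared with untrained mice labelled WT, a pair of arms that differ in genotype label, training and mostly in animal number. Here 6 astrocyte genes rose (Mt3, Gjb6, Htra1, Acsbg1, Aldoc and Clu) and 3 fell (Sox9, Slc4a4 and Slc1a3). These 9 of 34 genes are 26.5%, close to the 24.5% of all tested genes that were called, with 12.9% called higher and 11.5% called lower. An unadjusted p under 0.05 was found for 15 of 34 genes, against 37.5% of all tested genes. Positive differences were found for 27 of 34 genes with a median of 0.05 (50.9% and 0.0032 for all tested genes), and for 19 of 34 under quantile normalization. No gene separated the arms without overlap (3.11% of all tested genes). Mt3, Gjb6, Htra1, Sox9 and Acsbg1 stayed called whichever of the 16 libraries was left out. Slc4a4 was lost in 5 of these 16 fits, Slc1a3 in 6, and Aldoc and Clu in 12 each. Animal number can hardly be separated from this comparison, because WT male 1 is the only library labelled WT with a number over 1000. Differences with number as a covariate therefore rest on that library and are given below without a test. After correction for GC content and length the calls of Htra1, Acsbg1, Aldoc and Clu were lost and Dio2 was called in addition. That made 6 of 34 genes called, against 27.8% of all tested genes. This comparison shares its libraries with the other 2, so its values are not separate evidence for them.

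The gap junction genes were on the higher side in both KO-labelled arms for Gjb6, and only in the untrained one for Gja1. Gja1 (chromosome 10, 56377330 to 56402513, mm10) encodes connexin 43, the main astrocytic gap junction protein. Its level in the libraries labelled WT was 58.9 to 65.6 FPKM (median 60.0), a narrow range with an SD of 2.54. In the untrained libraries labelled KO it was 58.2 to 82.0 FPKM (median 67.7), and 7 of 8 were above the WT mean. In the trained ones it was 51.6 to 74.4 FPKM (median 61.5). The difference by genotype label, 0.16 ± 0.053 (SE) on the log2 scale, did not pass (limma adjusted p = 0.181). Left-out libraries gave adjusted p-values from 0.0484, without untrained KO male 1, to 0.308. Among mice with numbers under 1000 the difference was 0.23 and was called (limma adjusted p = 0.0433). The trained arm was lower than the untrained KO-labelled arm by -0.16 ± 0.070 (adjusted p = 0.185), and it differed from the WT-labelled arm by 0.0077 (95% interval -0.11 to 0.12), a value that fell below 0 under median-ratio, quantile and equal-sum scaling.

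Gjb6 (chromosome 14, 57123303 to 57133611, mm10) encodes connexin 30, the other connexin of mature astrocytes. It was at 21.3 to 31.4 FPKM (median 25.2) in the libraries labelled WT, 25.8 to 40.1 FPKM (median 28.6) in the untrained ones labelled KO and 28.3 to 40.5 FPKM (median 31.5) in the trained ones. The ranges overlapped in every pair of arms, and the highest library of each KO-labelled arm, untrained female 4 and trained male 4, stood well above the next. The untrained arms differed by 0.22 ± 0.096 (adjusted p = 0.337), with 8 of 8 libraries labelled KO above the WT mean. Gjb6 rose between untrained WT and trained KO by 0.32 ± 0.072, a ratio of means of 1.25 (limma adjusted p = 0.0045). With animal number as a covariate that difference was 0.11, a value that rests on WT male 1, whose 31.4 FPKM was the highest of its arm. Of 8 tested genes of other connexins and pannexins, none was called for genotype label or training. Between trained KO and untrained WT 2 of these 8 were called, against 24.5% of all tested genes. Gja4, a connexin of arterial endothelium, fell from 1.37 ± 0.249 to 0.905 ± 0.250 FPKM (SD, n = 8 each), and Panx1, a pannexin channel gene, rose from 6.95 ± 0.494 to 7.80 ± 0.756 FPKM.

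**Figure D3:**
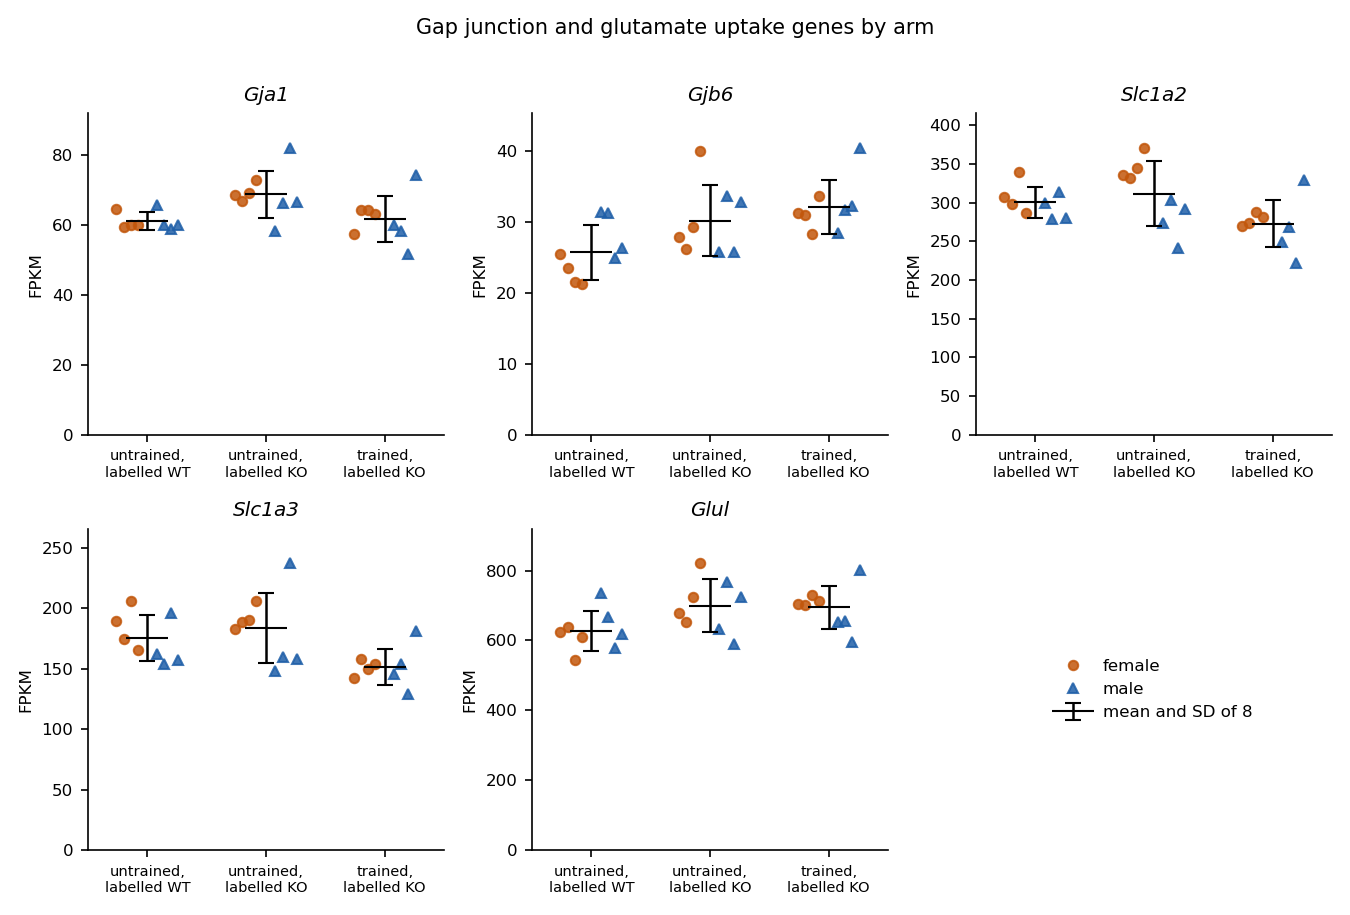
FPKM (vertical axes, from 0) of the gap junction genes Gja1 and Gjb6 and the glutamate uptake genes Slc1a2, Slc1a3 and Glul in each library by arm (horizontal axes), with circles for females, triangles for males and bars for the mean and SD of 8. The arms overlap for every gene, and Slc1a3 lies lowest in the trained arm, at 129 to 181 FPKM.

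The 2 glutamate transporter genes were on the lower side after training, and the glutamine synthetase gene was not. Slc1a3 (chromosome 15, 8634124 to 8710764, mm10) encodes GLAST. It was at 154 to 206 FPKM (median 170.2) in the libraries labelled WT, 149 to 237 FPKM (median 186) in the untrained ones labelled KO and 129 to 181 FPKM (median 152) in the trained ones. All 8 trained libraries were below the mean of the untrained KO-labelled arm. That difference was -0.27 ± 0.087 (limma adjusted p = 0.0777). It was called without untrained KO male 1 or without trained KO male 4 (lowest adjusted p = 0.0334), and it was -0.20 without untrained KO male 3, whose 237 FPKM was the highest value. Slc1a3 fell between untrained WT and trained KO by 0.21 ± 0.067 on the log2 scale, a ratio of means of 0.864 (limma adjusted p = 0.0309). That call was lost without trained KO female 1, female 3 or male 3 and without WT female 1, female 3 or male 3, with adjusted p-values up to 0.0708. With animal number as a covariate the difference for training was -0.02 and that between trained KO and untrained WT -0.13.

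Slc1a2 (chromosome 2, 102658659 to 102790784, mm10) encodes GLT-1, the major glutamate transporter of the forebrain. Its range was 278 to 340 FPKM (median 299) in the libraries labelled WT, 241 to 371 FPKM (median 318) in the untrained ones labelled KO and 222 to 329 FPKM (median 272) in the trained ones. In the untrained KO-labelled arm all 4 females were above all 4 males. Training went with a difference of -0.19 ± 0.075 (adjusted p = 0.136) and 1 of 8 trained libraries was above the untrained mean. The mean of Slc1a2 went from 346 to 279 FPKM in females and from 278 to 267 FPKM in males. The test of training by sex did not pass (limma adjusted p = 0.409). Glul (chromosome 1, 153899944 to 153909723, mm10) was at 545 to 735 FPKM (median 621), 590 to 821 FPKM (median 702) and 595 to 802 FPKM (median 703) in the same order of arms. Its difference was 0.16 ± 0.072 by genotype label (adjusted p = 0.376) and -0.0075 by training, with a 95% interval of -0.16 to 0.14. Slc1a2 lies 15.4 Mb from Thbs1 on chromosome 2, which also carries Cst3 (30.8 Mb away) and Slc39a12 (104 Mb away). None of the 34 genes is on the chromosome of Thbs2.

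Among other genes that move glutamate, glutamine and GABA, Slc38a1 rose by genotype label and Slc38a2 rose with training. By genotype label 1 of 16 tested genes was called, against 1.42% of all tested genes: Slc38a1, a neuronal glutamine transporter gene, rose from 30.2 ± 1.00 to 33.4 ± 1.37 FPKM (SD, n = 8 each). By training 2 of 16 were called, 1 in each direction, against 5.67% of all tested genes, and Slc38a2, another glutamine transporter gene, rose from 35.7 ± 6.26 to 47.1 ± 7.83 FPKM. From untrained WT to trained KO 4 of 16 were called, 2 in each direction, against 24.5% of all tested genes. Slc38a2 was among them, as were Slc1a4, a neutral amino acid transporter gene that fell, and Slc17a6, a vesicular glutamate transporter gene that rose.

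Mt3 was the metallothionein gene that differed most between arms, and in untrained mice it was split by sex. Mt3 encodes the metallothionein of the central nervous system, while Mt1 and Mt2 encode the widely expressed, metal-inducible ones. The 3 genes lie next to each other on chromosome 8 on the plus strand, Mt3 at 94152607 to 94154146, Mt2 at 94172664 to 94173568 and Mt1 at 94179082 to 94180327 (GENCODE M21, mm10). The sequences of the 250 bases before their annotated start sites are shown because these neighbouring genes moved together across libraries and because metal induction of this family acts through short promoter elements. They are from RefSeq on GRCm38.p6, by its own start sites, in which 30 of the 34 genes had an entry, at chr8:94178839-94179088 for Mt1, chr8:94172368-94172617 for Mt2 and chr8:94152357-94152606 for Mt3. Capitals mark the core of the metal response element, searched as TGCACNC and TGCGCNC on both strands, with no overlapping matches.
Mt1: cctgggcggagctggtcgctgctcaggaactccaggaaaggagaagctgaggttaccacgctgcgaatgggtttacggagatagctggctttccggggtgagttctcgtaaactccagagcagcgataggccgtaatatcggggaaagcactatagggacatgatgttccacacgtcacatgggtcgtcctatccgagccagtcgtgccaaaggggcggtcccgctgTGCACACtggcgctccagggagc
Mt2: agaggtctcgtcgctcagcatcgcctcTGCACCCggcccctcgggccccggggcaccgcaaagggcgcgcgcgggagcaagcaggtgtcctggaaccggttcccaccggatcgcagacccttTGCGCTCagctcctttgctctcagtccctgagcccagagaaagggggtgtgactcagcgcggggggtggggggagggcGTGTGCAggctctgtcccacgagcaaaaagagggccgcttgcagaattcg
Mt3: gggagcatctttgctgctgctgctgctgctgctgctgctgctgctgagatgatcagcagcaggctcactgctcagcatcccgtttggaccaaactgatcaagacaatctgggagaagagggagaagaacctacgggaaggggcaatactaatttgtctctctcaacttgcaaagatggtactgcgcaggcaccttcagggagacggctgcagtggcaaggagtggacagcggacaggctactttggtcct
The Mt2 window held 3 matches, the Mt1 window 1 and the Mt3 window 0. At least 1 match was present in 21.4% of all 32851 promoter windows of this length and at least 3 in 1.26%. Only 1 annotated start site per gene is covered, and no match says only that these letters are not in this window. The Mt1 window ends at 94179088, past the GENCODE start at 94179082. The Mt2 window ends at 94172617, before the GENCODE start at 94172664. The counts thus depend on the start sites used and do not rank the promoters of the genes.

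The Mt3 level in the libraries labelled WT was 198 to 238 FPKM in the 4 females and 280.3 to 320.2 FPKM in the 4 males. In the untrained libraries labelled KO it was 205 to 244 FPKM in females and 293 to 380 FPKM in males. In the trained libraries it was 315 to 342 FPKM in females and 327 to 357 FPKM in males. Females and males thus did not overlap in either untrained arm and overlapped in the trained arm, where the SD over 8 libraries was 13.9 FPKM against 47.3 FPKM (labelled WT) and 71.7 FPKM (untrained, labelled KO). All 8 trained libraries were above the mean of each untrained arm. The difference by training was 0.27 ± 0.087 and just missed the threshold (limma adjusted p = 0.0785). It was called without untrained KO male 3 (0.31, adjusted p = 0.0295) and without trained KO male 4. Between untrained WT and trained KO, Mt3 rose by 0.40 ± 0.063, a ratio of means of 1.30 (limma adjusted p = 3.0e-04). With animal number as a covariate the difference for training was 0.21 ± 0.15 (limma adjusted p = 0.660), and among the 6 males labelled KO with numbers over 1000 it was 0.07 ± 0.101 (limma adjusted p = 0.802). Between trained KO and untrained WT it was 0.18 with number as a covariate.

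Mt1 and Mt2 overlapped across all 3 arms. Mt1 ranged from 118 to 265 FPKM (median 138) in the libraries labelled WT, from 104 to 242 FPKM (median 169) in the untrained ones labelled KO and from 120.0 to 260 FPKM (median 170) in the trained ones. Mt2 ranged from 87.0 to 151 FPKM, from 74.0 to 161 FPKM and from 85.8 to 141 FPKM, with medians of 101, 110 and 105 FPKM. The 95% intervals for training were -0.28 to 0.37 for Mt1 and -0.27 to 0.25 for Mt2. Library by library, the 2 genes went together. Over the 24 deviations from the mean of each arm and sex, Mt1 and Mt2 correlated with Pearson's r = 0.889 and Spearman's rho = 0.896 (permutation test, p = 1e-05 for each, the smallest that 100000 permutations can give, adjusted p = 7e-05 over 7 pairs). Without the 2 libraries farthest from the Mt1 median r was 0.852, and it was 0.940 among the 11 mice with numbers over 1000 and 0.892 among the other 13. Mt3 followed them less closely, with r = 0.576 and rho = 0.687 against Mt1 (permutation adjusted p = 0.0062 and 0.0012) and r = 0.618 and rho = 0.633 against Mt2 (permutation adjusted p = 0.0041 and 0.0024), and without the 2 farthest libraries these were r = 0.537 and 0.521. In the same family of 7 pairs, Slc1a2 and Glul had r = 0.598 and rho = 0.473 (permutation adjusted p = 0.0043 and 0.035), which fell to r = 0.376 without the 2 farthest libraries and was 0.876 and 0.228 over and under number 1000, so it rests in part on those libraries. Slc1a2 and Slc1a3 had r = 0.306 and rho = 0.439 (permutation adjusted p = 0.171 and 0.046), with r = -0.05 without the 2 farthest libraries and 0.724 without untrained KO male 3. Slc1a3 and Glul had r = -0.09 and rho = -0.03 (permutation adjusted p = 0.669 and 0.901). Gja1 and Gjb6 had r = 0.347 and rho = 0.296 (permutation adjusted p = 0.137 and 0.187), with r = 0.548 without untrained KO male 3. All permutations shuffled the 24 deviations freely, although the mean of each arm and sex had been removed. Their p-values can therefore be too small, which matters most for those close to 0.05.

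**Figure D4:**
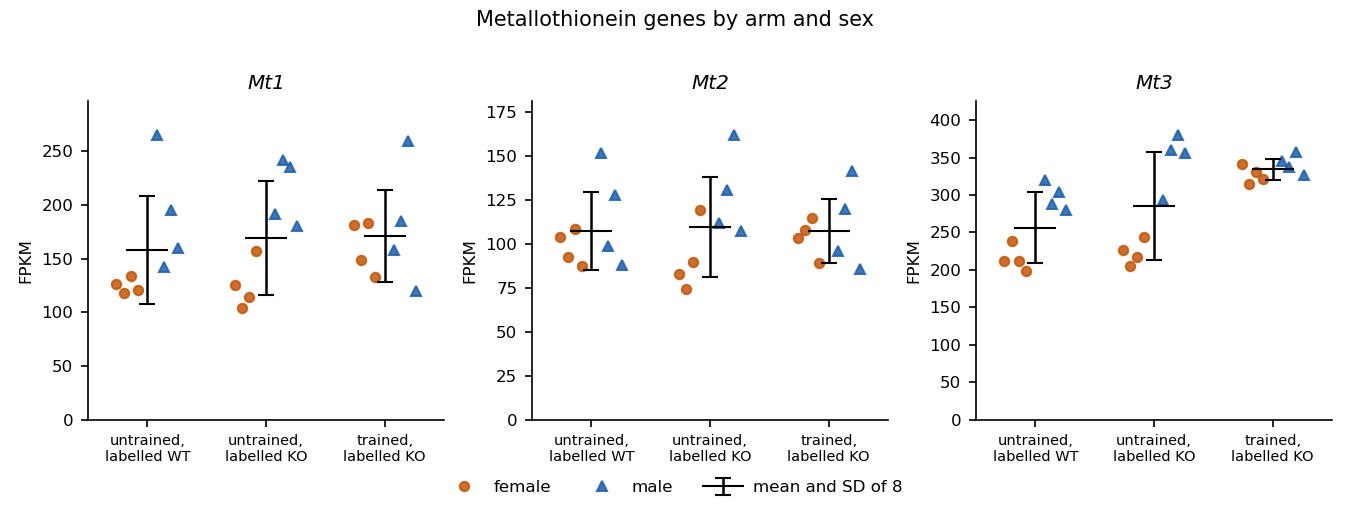
FPKM (vertical axes, from 0) of Mt1, Mt2 and Mt3 in each library by arm (horizontal axes), with circles for females, triangles for males and bars for the mean and SD of 8. For Mt3 the untrained females (198 to 244 FPKM) lie below all untrained males (280.3 to 380 FPKM), and the 8 trained libraries lie between 315 and 357 FPKM.

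Genes of zinc handling and metal response were examined beside the metallothioneins, and 2 exporter genes among them fell with training. None of 11 tested genes was called by genotype label, against 1.42% of all tested genes. By training 3 of 11 were called, against 5.67% of all tested genes. Slc30a1, a zinc exporter gene, fell from 6.54 ± 1.10 to 4.93 ± 0.603 FPKM (SD, n = 8 each). Slc30a10, a manganese exporter gene, fell from 3.61 ± 0.553 to 2.79 ± 0.144 FPKM. Nfe2l2, which encodes the oxidative stress factor NRF2, rose from 6.93 ± 0.485 to 8.23 ± 0.968 FPKM. From untrained WT to trained KO 4 of 11 were called, against 24.5% of all tested genes. Both exporter genes fell there too, and Mtf1, the gene of the metal response transcription factor, and Slc30a4, another zinc transporter gene, rose. Mtf1 was at 5.23 ± 0.622 FPKM in the libraries labelled WT and 6.24 ± 0.497 FPKM in the trained ones. The summed level of this list was 141 FPKM in untrained KO male 3, against 208 to 243 FPKM in the other 23 libraries. Differences without that library are not given for these genes.

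Among the other transporters, channels and junction proteins, Slc39a12, which encodes the zinc importer ZIP12, came closest to a call by genotype label. It was at 16.4 to 21.8 FPKM (median 18.5) in the libraries labelled WT, 20.02 to 28.7 FPKM (median 22.2) in the untrained ones labelled KO and 15.1 to 26.2 FPKM (median 19.9) in the trained ones. All 8 untrained libraries labelled KO were above the WT mean, though WT male 1 at 21.8 FPKM overlapped with them. The difference was 0.27 ± 0.065, a ratio of means of 1.22 (limma adjusted p = 0.0524). It was not called in 14 of 16 fits that each left out 1 library (adjusted p up to 0.127), nor with number as a covariate (0.25, adjusted p = 0.0701). It was called without WT male 1 (adjusted p = 0.0127) or without untrained KO male 3 (0.26, adjusted p = 0.0441), among mice with numbers under 1000 (0.31, adjusted p = 0.0413) and after correction for GC content and length (0.29, adjusted p = 0.0321). Slc4a4, the gene of a sodium bicarbonate cotransporter, was at 20.7 to 34.5 FPKM (median 25.4), 21.7 to 36.5 FPKM (median 23.7) and 12.4 to 26.3 FPKM (median 21.0) in the 3 arms. It fell between untrained WT and trained KO by 0.33 ± 0.104 on the log2 scale (limma adjusted p = 0.0294), and trained KO male 3 had the lowest value. The call was lost without trained KO female 1, female 3 or male 2, or WT female 3 or male 3. Slc6a11, the gene of the GABA transporter GAT-3, was at 103 FPKM in untrained KO male 3 against 45.4 to 59.0 FPKM in the other 7 of that arm, and its difference for training of -0.27 ± 0.132 (adjusted p = 0.230) ranged from -0.31 to -0.14 with single libraries left out. The other 6 genes were Aqp4 (the water channel aquaporin 4), Atp1b2 (a sodium pump subunit), Slc7a10 (a small neutral amino acid transporter), Ttyh1 (a membrane protein of the Tweety family), and Mlc1 and Hepacam (partners at astrocyte junctions). Their differences between arms lay between -0.17 and 0.16, and none was called.

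Sox9 was the one gene of structure, calcium binding and cell identity that passed. Its level was 3.52 to 5.50 FPKM (median 4.79) in the libraries labelled WT, 3.83 to 5.43 FPKM (median 4.68) in the untrained ones labelled KO and 2.97 to 4.53 FPKM (median 3.59) in the trained ones. All 8 trained libraries were below the mean of each untrained arm, and the ranges overlapped. Sox9 fell with training by 0.32 ± 0.076 on the log2 scale, a ratio of means of 0.764 (limma adjusted p = 0.0242), and was lower than in untrained WT by -0.29 ± 0.080 (limma adjusted p = 0.0147). The call for training was lost without trained KO female 1, female 2 or female 4, with adjusted p-values up to 0.0566. From untrained to trained KO the mean went from 4.99 to 3.36 FPKM in females and from 4.49 to 3.89 FPKM in males. The test of training by sex gave 0.29 ± 0.138 (limma adjusted p = 0.330). Among females, training and animal number cannot be told apart. With animal number as a covariate the difference for training was -0.15 ± 0.120 (adjusted p = 0.694), and among males with numbers over 1000 it was -0.11 ± 0.139 (adjusted p = 0.793). Gfap (an intermediate filament), S100b (a calcium-binding protein), Fgfr3 (a growth factor receptor), Ntsr2 (a neurotensin receptor), Gpr37l1 (an orphan receptor) and Cldn10 (a claudin) were not called in any pair of arms. Gfap was at 20.2 to 28.7 FPKM, 15.9 to 29.0 FPKM and 18.2 to 37.9 FPKM in the 3 arms, with a difference for training of 0.12 ± 0.132.

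All 6 metabolic genes had positive differences between trained KO and untrained WT, and 2 of them rose. Acsbg1, a fatty acid activating enzyme gene, was at 46.7 to 67.4 FPKM (median 53.6) in the libraries labelled WT, 53.2 to 71.9 FPKM (median 63.9) in the untrained ones labelled KO and 56.5 to 71.3 FPKM (median 62.7) in the trained ones. Both KO-labelled arms lay above the WT-labelled one by the same amount: 0.20 ± 0.065 for the untrained arm (adjusted p = 0.181) and 0.20 ± 0.059 for the trained arm (limma adjusted p = 0.0218). The arms share the WT libraries, and with animal number as a covariate the second value was -0.10. Aldoc, the gene of the brain aldolase, rose between untrained WT (270 to 388 FPKM, median 313) and trained KO (331 to 400.3 FPKM, median 345) by 0.15 ± 0.053 (limma adjusted p = 0.0461), a call lost in 12 of 16 fits that each left out 1 library. With number as a covariate the difference was -0.10. Aldh1l1 (folate metabolism), Dio2 (thyroid hormone activation), Prodh (proline breakdown) and Ndrg2 were not called. After correction for GC content and length, Dio2 was called between trained KO and untrained WT. Of these, Dio2 varied most, from 9.67 to 25.8 FPKM in the libraries labelled WT, 10.6 to 24.7 FPKM in the untrained ones labelled KO and 16.2 to 29.4 FPKM in the trained ones, with a difference of 0.28 ± 0.121 for training (adjusted p = 0.165).

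Of the 4 genes of secreted proteins, Htra1 and Clu rose between untrained WT and trained KO. Htra1, a serine protease gene, was at 42.7 to 64.5 FPKM (median 54.3), 50.8 to 70.0 FPKM (median 55.7) and 59.4 to 79.1 FPKM (median 62.0) in the 3 arms. It rose by 0.25 ± 0.067, a ratio of means of 1.19 (limma adjusted p = 0.0122), and the difference was 0.04 with animal number as a covariate. Clu, the gene of the chaperone clusterin, went from 355 to 529 FPKM (median 419) in the libraries labelled WT to 440 to 536 FPKM (median 470) in the trained ones, a rise of 0.16 ± 0.058 (limma adjusted p = 0.0467) that was lost in 12 of 16 such fits. The mean of Clu went from 371 to 464 FPKM in females and from 479 to 481 FPKM in males. Whether this pair of arms differs by sex was not tested. With number as a covariate the difference between the arms was -0.08 for Clu. Apoe, the main lipid carrier of the brain, and Cst3, a protease inhibitor gene, were not called, with differences of 0.06 (95% interval -0.09 to 0.21) and 0.05 (95% interval -0.10 to 0.20).

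Mt1, Mt3 and 3 of 4 genes of secreted proteins were higher in males, and the genes of aquaporin 4, GLT-1 and the deiodinase Dio2 were lower. Over the 24 libraries with arm as a covariate, 13 of 34 genes were called, 10 higher and 3 lower in males, against 28.6% of all tested genes (14.8% higher and 13.8% lower, and 40.3% at an unadjusted p under 0.05). Mt1 was higher in males by 0.48 ± 0.120 and Mt3 by 0.39 ± 0.064 (limma adjusted p = 0.0047 and 3.7e-04), with 11 of 12 and 12 of 12 males above the female mean. Cst3 (0.28), Clu (0.25), Prodh (0.21), Apoe (0.19), Ntsr2 (0.18), Ndrg2 (0.17), Ttyh1 (0.16) and Mlc1 (0.13) were also higher in males, and Dio2 (-0.39), Aqp4 (-0.27) and Slc1a2 (-0.16) were lower. With single libraries left out, the call of Slc1a2 was lost in 12 of 24 fits, with an adjusted p of up to 0.0694, that of Mlc1 in 8, of Prodh in 5 and of Apoe in 4. Without untrained KO male 3, Slc1a2 was at -0.13 (limma adjusted p = 0.0502), and Aldoc and Slc4a4 were called in addition. Of 9 microglial markers 6 were called for sex, 5 of them higher in males, and their summed level was 195 to 227 FPKM in females and 207 to 246 FPKM in males. All 8 striatal markers had positive differences (median 0.45), none of them called, with sums of 86.6 to 369 FPKM in females and 101 to 750.0 FPKM in males. The part of these cells in the sex differences was not tested. The sex differences of the 34 genes also moved with base composition. Over the 34 genes the sex difference had a Spearman correlation of 0.688 with the GC content of the longest transcript, and over 12491 tested genes of 0.698. The members share their libraries, and their median GC content was 52.4% against 49.8% for tested genes. Mt3, at 62.3%, had the highest GC content of the 34 and Aqp4, at 41.4%, the lowest. After correction for GC content and length only Ttyh1 of the 34 genes remained called, with 3.72% of all tested genes called. The part of base composition in the sex differences was not tested beyond that correction.

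**Figure D5:**
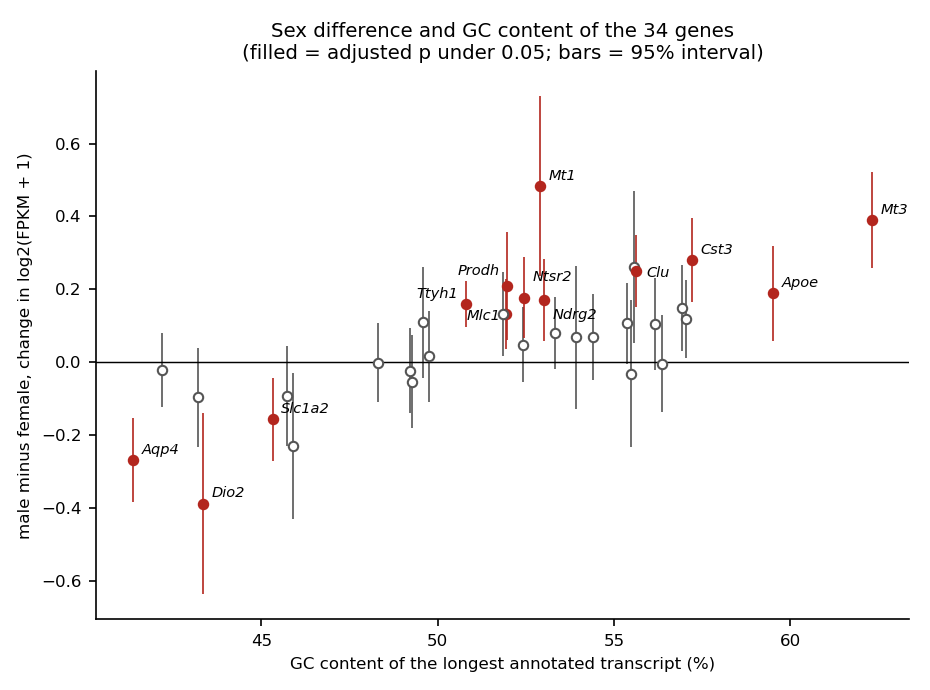
Male minus female difference in log2(FPKM + 1) over 24 libraries (vertical axis, 95% intervals from limma) against the GC content of each gene's longest transcript (horizontal axis, in percent) for the 34 genes, with the 13 called genes filled and named. Genes of high GC content such as Mt3 (62.3%) are higher in males and genes of low GC content such as Aqp4 (41.4%) are lower.

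The sex gap of the 34 genes was compared between arms, and no gene passed the test of that difference. The median absolute gap was 0.19 in the libraries labelled WT, 0.16 in the untrained ones labelled KO and 0.08 in the trained ones, and over all tested genes it was 0.12, 0.14 and 0.08. Its Spearman correlation with GC content over the 34 genes was 0.675, 0.768 and 0.306 in the same order. Over 12491 tested genes that correlation was 0.687, 0.619 and 0.301. A test of training by sex called 0 of 34 genes (0.00795% of all tested genes, and 15.5% at an unadjusted p under 0.05). The share of all tested genes was 1.54% without untrained KO male 3 and 0.684% under quantile normalization, with Mt3 called in both. Mt3, singled out after its values were seen, had the smallest p, with a training effect that was lower in males by -0.57 ± 0.109 (limma adjusted p = 0.0645). This interaction was called with a minimum mean of 5 FPKM (adjusted p = 0.0454), under quantile normalization (0.0473) and without untrained KO male 1 (-0.65, adjusted p = 0.0246) or male 3 (-0.52, adjusted p = 0.0321), and it was -0.41 with an adjusted p = 0.299 after correction for GC content and length. A test of genotype label by sex called 0 of 34 genes and 0 of all tested genes (0%, with 3.13% at an unadjusted p under 0.05).

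Astrocyte genes beyond the 34 were counted as well. Of 33 further tested astrocyte-enriched genes, none was called by genotype label, against 1.42% of all tested genes. There 20 of 33 differences were positive (49.3% of all tested genes), with a median of 0.03. By training 3 were called, against 5.67% of all tested genes. Here 26 of 33 differences were negative with a median of -0.12, while 52.2% of all tested genes had positive ones. Tril, a modulator of Toll-like receptor signalling, fell from 8.93 ± 1.22 to 6.13 ± 0.520 FPKM (SD, n = 8 each), a log2 difference of -0.47 (limma adjusted p = 0.0017). Paqr6 fell from 2.95 ± 0.497 to 2.17 ± 0.245 FPKM, and Daam2, a Wnt pathway gene, rose from 17.4 ± 2.84 to 23.2 ± 3.5 FPKM. In the third pair of arms, trained KO and untrained WT, 8 of 33 were called, 3 higher and 5 lower, or 24.2% beside 24.5% of all tested genes. By smallest p these were Tril, Daam2, Kcnj16 (a potassium channel gene), F3 (tissue factor), Pla2g7 (a lipoprotein-associated phospholipase) and Mfge8 (a bridging protein in phagocytosis), of which Daam2 and Mfge8 rose, and 2 more.

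Among genes of reactive astrocytes, Hspb1 rose with training. Of 28 listed genes 14 were tested, 6 were not in the table and the other 8 were under a mean of 1 FPKM. Hspb1, the gene of the small heat shock protein HSP27, was at 0.621 to 4.06 FPKM (median 2.36) in the libraries labelled WT, 1.41 to 4.35 FPKM (median 2.19) in the untrained ones labelled KO and 4.34 to 7.74 FPKM (median 5.61) in the trained ones. 1 untrained library labelled KO reached the lowest trained one, and no library labelled WT did. Hspb1 rose with training by 0.97 ± 0.138 on the log2 scale (limma adjusted p = 0.0011). It was the only gene of the 14 called for training, against 5.67% of all tested genes. Between trained KO and untrained WT, Hspb1, Sphk1 (a sphingosine kinase), Serpina3n (a protease inhibitor) and H2-D1 (a class I histocompatibility gene) rose, and none fell. These were 4 of 14, against 24.5% of all tested genes called (12.9% higher and 11.5% lower). The position of H2-D1 relative to Thbs1 and Thbs2 was not examined. Hspb1 is also expressed by vascular cells, and Ly6c1, an endothelial marker, rose with training from 9.57 ± 1.59 to 13.8 ± 2.28 FPKM while the pericyte marker Pdgfrb fell from 4.89 ± 0.534 to 3.87 ± 0.524 FPKM. The summed level of 10 endothelial and mural markers was 52.0 to 74.0 FPKM in untrained KO and 55.6 to 85.0 FPKM in trained KO, and its part in the Hspb1 values was not tested.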

How the data were processed

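RNA-seq of anterior cingulate cortex from 24 mice, 1 library each, gave the data. Per the submitters' processing notes, reads were handled with FastQC 0.11.7, Trimmomatic 0.38, STAR 2.5.3a and featureCounts of Subread 1.6.3 on the mouse build mm10. The authors deposited 1 table of FPKM values for 15232 genes, and how counts became FPKM and which annotation was used are not given in the sources used here. The FPKM steps gave whole reads for 99.9746% of values, within 0.01 read (0.15 read for highly covered genes), and hence the depth of 12343773 to 27233266 reads per library, which limits precision little for these genes. Arms and sexes are as labelled. The 12572 genes with a mean of at least 1 FPKM were tested with limma 3.58.1 (R 4.3.3, trend, 2-sided) on log2(FPKM + 1) with sex as a covariate, using only the arms compared. A fold change on this scale understates the change of low genes. P-values were adjusted over all tested genes by the Benjamini-Hochberg method at 0.05, and they measure the spread between mice. Values after ± are SE for log2 differences and SD for FPKM.

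The 34 members, the gene lists and the alternatives were chosen with earlier results of these data known. Values per arm are given for gap junction, glutamate uptake and metallothionein genes, for every member called in a pair of arms and for the 3 members with the smallest p in each. Of the other lists (other connexins and pannexins, glutamate and GABA recycling, metal response, other astrocyte genes, reactive astrocyte genes) called genes are named, at most 6 per list, and 1 gene of the recycling list is not reported here. Correlations and permutations used scipy 1.17.1 (Python 3.11.15, numpy 2.4.6, pandas 2.3.3). GC content comes from GENCODE M21 transcripts, available for 99.4% of tested genes. In simulated data with 200 genes changed 2-fold among 12572, the test called 196, 199 and 197 of them for genotype label, training and both, with 13, 9 and 5 other calls. The largest difference between arms among the 34 genes was far smaller, 0.40 on the log2 scale (Mt3, trained KO against untrained WT). The simulation therefore does not tell how often differences of that size or less are called.

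Alternatives were another pseudocount, filter, scaling, weighting, tool and threshold, a GC and length correction, no sex covariate, all 24 libraries in one fit, a replicate block, animal number as a covariate or a subset, and leaving out each library. Equal-sum scaling was added after seeing the data.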

Additional observations from a re-analysis of the deposited data

Results flagged for a closer look

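In 13 of 102 groups of 8 libraries, each 1 gene in 1 arm, the highest library stood apart from the other 7 by Dixon's criterion (gap over range above 0.526), and chance flags about 1 in 20 groups. All 13 were single high values. Trained KO male 4 held 5 of them: Aldoc at 400.3 FPKM (331 to 361 FPKM in the other 7), Ndrg2 at 439 FPKM (338 to 372 FPKM), Gjb6 at 40.5 FPKM (28.3 to 33.7 FPKM), Mlc1 at 79.0 FPKM (64.2 to 70.4 FPKM) and Htra1 at 79.1 FPKM (59.4 to 64.5 FPKM). Without this library the calls of Gjb6 and Htra1 between trained KO and untrained WT held and that of Aldoc did not. Untrained KO female 4 held 3: S100b at 72.3 FPKM (52.0 to 61.3 FPKM), Hepacam at 37.8 FPKM (27.8 to 32.4 FPKM) and Slc39a12 at 28.7 FPKM (20.02 to 23.2 FPKM). Slc6a11 was at 103 FPKM in untrained KO male 3 (45.4 to 59.0 FPKM), the library that is also high in striatal markers. Ntsr2 was at 60.6 FPKM in untrained KO male 2 (40.1 to 49.5 FPKM) and at 53.2 FPKM in WT male 3 (39.8 to 46.0 FPKM). Mt1 was at 259.8 FPKM in trained KO male 3 (120.0 to 185 FPKM), and Prodh at 16.8 FPKM in WT male 1 (10.3 to 12.7 FPKM).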

How the results depend on the processing

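The main limits are the genotype labels, which the targeted genes go against, and animal number, which is over 1000 in all trained mice. With number as a covariate, 0 of 34 genes were called for training, against 0% of all tested genes, and among males with numbers over 1000 the count was also 0. These fits rest on 2 untrained mice labelled KO with such numbers, so their counts of 0 say little. Between trained KO and untrained WT the same fits rest on 1 mouse labelled WT, and their counts are not given. By genotype label, where no gene was called, 1 was called with a threshold of 0.1, median-ratio scaling, array weights, the GC and length correction or limma-voom on recovered reads, and 2 among mice with numbers under 1000. Of all tested genes, 1.41% were called with median-ratio scaling, 1.64% with the GC and length correction and 1.01% among those mice. Where a count in this section has no share beside it, the share of all tested genes is not given. For training, with 1 call, the count was 3 at a threshold of 0.1, 0 with a minimum mean of 5 FPKM (which leaves out Sox9), 4 with array weights and 3 with all 24 libraries in one fit. Between trained KO and untrained WT, with 9 calls, it was 5 with all 24 libraries in one fit. For training by sex it was 1 with a minimum mean of 5 FPKM, 1 with quantile normalization (0.684% of all tested genes) and 5 with array weights. For sex, with 13 calls, it was 8 with quantile normalization, 1 with the GC and length correction and 8 with equal-sum scaling. The shares of all tested genes were 28%, 3.72% and 28.4% in the same order. Leaving out single libraries gave 0 to 1 calls for genotype label, 0 to 4 for training, 5 to 11 for both, 0 to 1 for training by sex, 0 to 0 for genotype label by sex and 9 to 17 for sex. The differences of Thbs1 and Thbs2 kept their direction, from 1.56 to 1.66 and from 0.54 to 0.61 with single libraries left out, and 2.64 and 0.77 with a pseudocount of 0.1. The cause of these shifts was not tested unless stated.

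Replicate numbers name different mice and do not pair the samples: same-numbered libraries correlated in their deviations with a mean r of 0.02 for genotype label, -0.07 for training and -0.10 for both. With the replicate block, 0 genes were called for training and 4 for both (Dio2, Gjb6, Htra1 and Mt3), Glul for training was 0.020, Mt2 for training 0.048 and Gja1 for both -0.0020.

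Some differences changed sign. By genotype label, Slc1a3 became -0.0059 with array weights and ranged from -0.010 (without untrained KO male 3) to 0.095 with single libraries left out, and Mt2 became -0.080 with array weights, -0.012 with the GC and length correction, -0.0073 with number as a covariate and ranged from -0.050 (without WT male 4) to 0.070 with single libraries left out. For training, Glul became 0.023 without untrained KO female 4. Mt1 became -0.0092 with quantile normalization, -0.047 with the GC and length correction, -0.18 with number as a covariate, -0.31 among males with numbers over 1000 and -0.018 (without untrained KO female 2) to 0.15 with single libraries left out. Mt2 became 0.096 with array weights and, with single libraries left out, -0.068 to 0.060 (without untrained KO male 3). Between trained KO and untrained WT, number as a covariate and the males with numbers over 1000 gave -0.10 and -0.13 for Aldoc, -0.10 and -0.13 for Glul, -0.095 and -0.12 for Acsbg1, -0.079 and -0.14 for Clu, -0.54 and -0.60 for Mt1, -0.47 and -0.48 for Mt2 and -0.11 and -0.11 for Gja1. Gja1 became -0.00036 with median-ratio scaling, -0.0094 with quantile normalization, -0.00030 with array weights, -0.00046 with limma-voom, -0.034 with equal-sum scaling and -0.036 (without trained KO male 4) to 0.044 with single libraries left out. Mt2 became -0.0011 with median-ratio scaling, -0.037 with quantile normalization, -0.12 with the GC and length correction, -0.0024 with limma-voom, -0.035 with equal-sum scaling and -0.045 (without trained KO male 3) to 0.076 with single libraries left out.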

Other observations

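Markers of other cells in the same libraries were counted over the 3 pairs of arms. Of all tested genes, 1.42% were called by genotype label, 5.67% by training and 24.5% between trained KO and untrained WT. Between trained KO and untrained WT, 5 of 9 microglial markers were called, 4 lower and 1 higher, with a median of -0.08, and Trem2 was at 8.22 ± 1.33 FPKM in the libraries labelled WT against 5.48 ± 0.503 FPKM in the trained ones (SD, n = 8 each). Trem2 was also lower in the untrained libraries labelled KO, at 5.76 ± 0.769 FPKM. Its position relative to Thbs1 and Thbs2 was not examined. Of 9 oligodendrocyte markers none was called for training, although 8 of 9 differences were positive with a median of 0.25, and 2 were called between trained KO and untrained WT, 1 in each direction. Of 5 oligodendrocyte precursor markers, 2 were lower in the latter comparison and none was called in the others. Of 9 neuronal markers, 1 was called higher and 1 lower there. The 5 tested ependymal and choroid plexus markers gave no calls, and their summed level reached 99.6 FPKM in 1 trained library against at most 39.2 FPKM in the untrained ones. Of 4 meningeal markers, 2 were higher between trained KO and untrained WT.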
